A study of Gallus gallus with 12 samples.

Results

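Of the 13889 genes found in any of 4 tables of transcript levels from chicken cells, 120 were listed in HD3 erythroblasts at a mean of at least 1 and in none of the other 3 tables. HD3 is an immortal line of chicken erythroblasts, the dividing precursors of red blood cells, and the other tables hold primary fibroblasts, primary red blood cells taken on embryonic day 10, and those of adult hens aged 28 to 38 weeks. All 12 samples, 3 per cell type, are given as wild type, and the fibroblasts and HD3 cells were cultured in the same medium with bovine and chicken serum. Levels are FPKM, fragments on a gene divided by its length and by the size of the library, which the authors then scaled to cell number. These values are called scaled FPKM here.

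The members were chosen by measured values, namely the mean over the 3 HD3 replicates and absence from the other tables. Their high level in HD3 and their absence elsewhere are therefore a description, and no test between cell types was made. A table lists a gene only where its average over 3 replicates is 0.3 or more. Absence is therefore read here as an average below that cutoff and not as a measured 0. Whether every gene at 0.3 or more was listed could not be checked. In bulk samples, fewer cells of a type and less RNA per cell cannot be told apart.

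As background, erythroblasts divide and fill with haemoglobin before they mature, and in birds the mature cell keeps a nucleus whose chromatin is condensed and little transcribed. Transcripts of a precursor line that are missing from circulating red blood cells can belong to proliferation, to an earlier stage of the lineage, or to the state of a cell line that was transformed by the avian erythroblastosis virus. Fibroblasts are connective tissue cells outside the blood lineage, so a gene missing from their table as well is not one listed in both cultured cell types. It can still be present in fibroblasts below the cutoff. HD3 is a single transformed line, and its 3 replicates measure the spread between samples of that line, not between birds. The labels do not say whether these samples were separate cultures. The files give Ensembl gene IDs without names, and 0 of the 25635 genes of the reference table used here carry such an ID. Roles, positions and sequences of the members are therefore not given, the erythroid identity of the line could not be checked against marker genes, and 4 members are given by ID.

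Reads on listed genes, worked out from the values, numbered 9051843 in HD3 replicate 1, 19081702 in replicate 2 and 19379161 in replicate 3, and between 2916238 and 23385196 in the other 9 libraries. The members took 36336, 77466 and 75378 of the reads of HD3 replicates 1 to 3, a share of 0.399% ± 0.00880 (SD, n = 3). On the scaled FPKM scale, which also divides by length, they held 0.304% ± 0.0640 (SD, n = 3) of the HD3 sum. That share was 0.377% in replicate 1, above 0.275% and 0.259% in replicates 2 and 3, although the members' own sum was nearly the same in the 3 libraries at 354, 359 and 348. The sum over the whole HD3 table was 93878 in replicate 1 against 130528 and 134287 in the other two, mostly through 1 gene, the highest of the table, at 11533, 36827 and 39362 scaled FPKM. Once the top 10 genes were left out of each sample, the members' share was 0.498%, 0.473% and 0.458%.

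Absence from fibroblasts did most of the selecting. HD3 erythroblasts had 10303 listed genes, of which 404 were not listed in fibroblasts. Of these 404, 386 were listed in no other table (95.5%) and 18 in a red blood cell table. Of the 386, 120 had a mean of at least 1 and are the members, and 266 lay below it. Among all 7986 HD3 genes at 1 or more, the members were 1.5%. The counterpart of the members, genes at 1 or more in HD3 that were absent from fibroblasts but listed in embryonic or adult red blood cells, numbered 13, with a median level in HD3 of 3.17 and a highest level of 23.2 scaled FPKM. HD3 genes listed in all 4 tables numbered 462 and reached 29241 scaled FPKM.

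**Figure D1:**
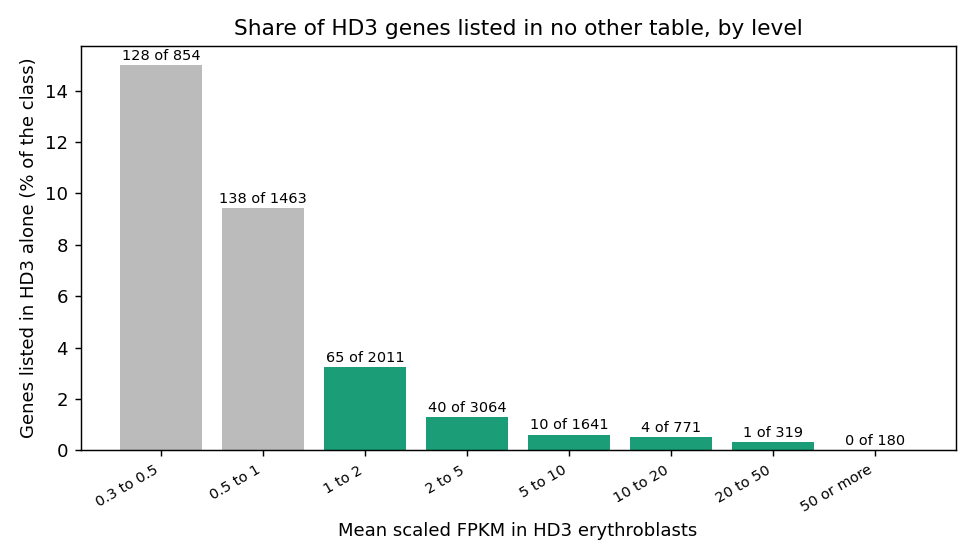
Percentage of HD3 genes that no other table lists, in classes of the mean scaled FPKM in HD3 erythroblasts, with counts above each bar. Grey bars lie below the mean of 1 required of a member and green bars hold the members. The share falls from 15.0% of the genes between 0.3 and 0.5 to 0 of the 180 genes at 50 or more.

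The share of HD3 genes listed nowhere else fell with the level, as the plot of that share by level shows. It was 128 of 854 genes between 0.3 and 0.5 (15.0%) and 138 of 1463 between 0.5 and 1 (9.43%). Among the classes that hold members it was 65 of 2011 genes between 1 and 2 (3.23%), 40 of 3064 between 2 and 5 (1.31%), 10 of 1641 between 5 and 10 (0.609%), 4 of 771 between 10 and 20 (0.519%) and 1 of 319 between 20 and 50 (0.313%). No gene at 50 or more was confined to the HD3 table, of 180 such genes. Each of these was thus listed in at least 1 other cell type. The fall is partly built in, since the rule uses both the level in HD3 and a fixed cutoff of 0.3 elsewhere. A gene near 0.3 in HD3 goes unlisted elsewhere after a small drop, while one at 50 or more needs a large drop.

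The members were accordingly low to moderate transcripts. Their median level was 1.88 scaled FPKM, with quartiles of 1.31 and 3.05, against a median of 3.60 over all HD3 genes at 1 or more. By replicate the members' median was 1.83, 1.97 and 1.86. Of the 120, 65 lay between 1 and 2, 40 between 2 and 5, and 15 at 5 or more. Ranked among the 10303 HD3 genes, 4 members were in the top 1000 and 0 in the top 100, and the median rank was 6190. The median member stood 6.26-fold above the listing cutoff of 0.3.

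The 10 highest members held 32.6% ± 1.53 (SD, n = 3) of the members' sum. The highest was ENSGALG00000002647, with 25.5, 23.5 and 20.7 scaled FPKM in replicates 1 to 3, a mean of 23.3 ± 2.42 (SD, n = 3). All 3 libraries were high and close together. The mean is 77.5-fold above the cutoff under which a gene is left out of a table, and ENSGALG00000002647 ranked 415 in the HD3 table. Its recovered length was 1444 bp and its reads numbered 1948, 3785 and 3385. The 95% counting interval of its level was made from the exact Poisson interval of the reads. It ran from 24.4 to 26.7 in replicate 1, from 22.8 to 24.3 in replicate 2 and from 20.03 to 21.4 in replicate 3. None of these intervals overlap, so in the deposited values all 3 libraries differed by more than read counting. The intervals were not made under other scalings, which shift whole libraries against each other. Intervals here cover counting error only.

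The member ranked 2, ENSGALG00000031305, behaved differently between libraries. It was at 9.31 in replicate 1 against 19.5 and 18.1 in replicates 2 and 3, with a mean of 15.6 ± 5.52 (SD, n = 3) and a recovered length of 3403 bp. Replicate 1 was 2.02-fold below the mean of the other two libraries, on 1673 reads against 7395 and 6950. Further members are given by rank and were picked after their values were seen. The member ranked 3 was highest in replicate 1, at 16.7, 14.03 and 13.7 scaled FPKM. The member ranked 4 was also highest there, at 15.3, 11.7 and 11.3, and the member ranked 5 was lowest there, at 9.87, 13.2 and 12.3. From rank 6 downward no member had a mean above 8.05.

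**Figure D2:**
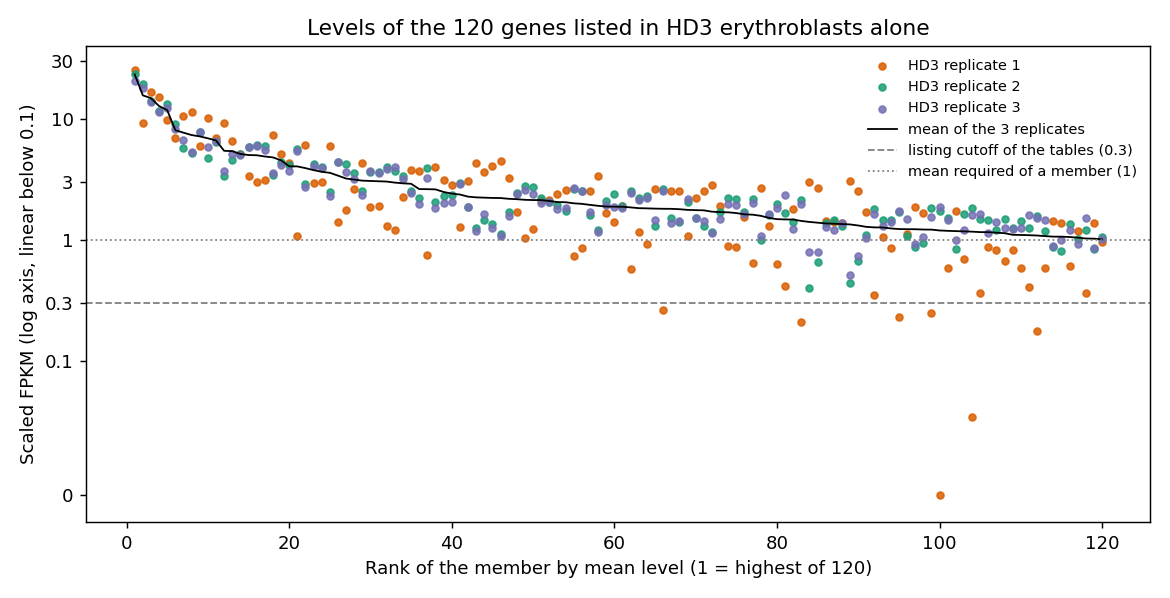
Scaled FPKM of the 120 members in each HD3 replicate (points) and their mean (line), ordered by mean level, on a log axis that is linear below 0.1. The points of replicates 2 and 3 lie close to each other while those of replicate 1 scatter to both sides of the line, down to 0 for the member ranked 100. Because the line averages all 3 replicates, the points of replicates 2 and 3 also lie off it where replicate 1 departs.

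At the lower end the members closest to the threshold were ENSGALG00000016852 and ENSGALG00000045792. ENSGALG00000016852 had 0.954, 1.06 and 1.02 scaled FPKM in replicates 1 to 3, a mean of 1.01 ± 0.0516 (SD, n = 3), on 200, 467 and 456 reads. ENSGALG00000045792 had 1.38, 0.839 and 0.851, a mean of 1.02 ± 0.307 (SD, n = 3), on 77, 99 and 102 reads. It passed the threshold through replicate 1, since replicates 2 and 3 lay below 1. The 3 genes just below the threshold had means of 0.995, 0.989 and 0.988. Both sides of the line thus hold genes of nearly equal level.

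The threshold was met unevenly by single libraries. A level of at least 1 was reached by 88 members in replicate 1 and by 110 in each of replicates 2 and 3, and by 77 members in all 3. Of all 7986 HD3 genes with a mean of 1 or more, 7653, 7577 and 7580 reached 1 in replicates 1 to 3. Replicate 1 thus had the most such genes over the whole set but the fewest among the members. In 32 members replicates 2 and 3 were both at 1 or more while replicate 1 was below it, and in 9 members the opposite held. These counts, and that of the 77, were not made over all 7986 genes. Replicates 2 and 3 lie close together and jointly weigh more in the mean than replicate 1. Whether that weighting adds to the 32 against 9 members was not tested. The same threshold chose all 7986 genes. In the deposited values, replicate 1 was the highest library in 60.6% of those genes and the lowest in 34.7%. Among the members it was the highest in 45.8% and the lowest in 50.8%. Below the listing cutoff of 0.3 were 7 members in replicate 1 and 0 in replicates 2 and 3, against 27, 1 and 0 of the 7986 genes. With replicate 1 left out, 129 genes met the rule, of which 109 were members, so that 11 members were lost and 20 genes gained. Leaving out replicate 2 or replicate 3 gave 117 genes each, of which 108 and 111 were members.

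Replicate 1 set the spread of the members. Pearson's r of log2(scaled FPKM + 1) over the 120 members was 0.608 between replicates 1 and 2, 0.629 between 1 and 3, and 0.990 between 2 and 3. Over all 7986 HD3 genes at 1 or more the same values were 0.868, 0.875 and 0.996. Spearman's rho over the members was 0.372, 0.364 and 0.975, against 0.810, 0.820 and 0.993 over all 7986. These are correlations across genes of the same libraries, which are not independent and cover a narrower range of levels among the members, so they carry no test. The labels give no batch or date, and the cause of the difference between replicate 1 and the other libraries was not tested. Replicate 1 also had the fewest reads.

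**Figure D3:**
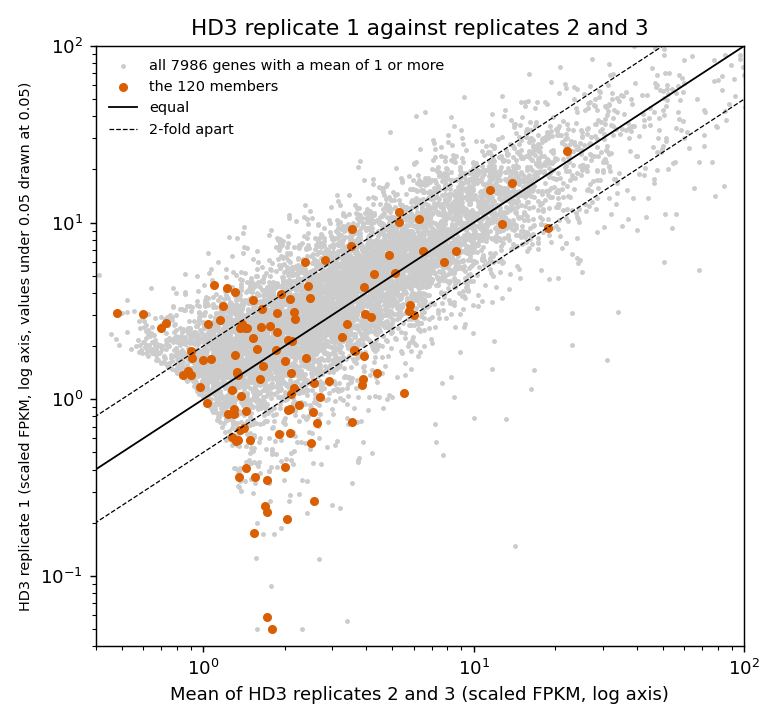
HD3 replicate 1 against the mean of replicates 2 and 3 (scaled FPKM, log axes) for the 120 members (orange) and all 7986 HD3 genes with a mean of 1 or more (grey), with lines at equality and at 2-fold apart. Values under 0.05 are drawn at 0.05 and 119 genes lie outside the axes. The members spread to both sides, with 36 at or beyond the lower line and 18 at or beyond the upper one.

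Among the members, 36 were at least 2-fold lower in replicate 1 than the mean of replicates 2 and 3 (30%), and 18 were at least 2-fold higher (15%), as the scatter of replicate 1 against the other libraries shows. Over all 7986 HD3 genes at 1 or more the shares were 7.49% lower and 15.5% higher. A 2-fold difference in either direction was thus seen in 45% of members and in 22.97% of all genes. Between replicates 2 and 3, 0 members and 18 of the 7986 genes were 2-fold apart in the deposited values. Which direction was the more frequent among the members depended on the scaling, which was tried after seeing the data. The sums of the samples differ mostly through the highest gene of the HD3 table, as given above. With samples brought to equal sums, 22 members were lower and 39 higher in replicate 1, against 3.17% and 37.0% of all genes. With samples brought to the same median gene, 43 members were lower and 12 higher, against 11.6% and 9.05% of all genes. The median ratio of replicate 1 to the mean of the other libraries was 0.901 over the members and 1.19 over all genes in the deposited values, 1.27 and 1.68 with equal sums, and 0.757 and 0.998 with equal medians. The share of members that were 2-fold lower in replicate 1 was above that of all genes in each of the 3 scalings, at 30%, 18.3% and 35.8%. Each scaling divides a whole library by a constant and moves members and all genes alike, so these 3 comparisons are not independent.

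In the deposited values, the members that were low in replicate 1 lay mostly among the lower members. The level is the mean of all 3 replicates, so a low replicate 1 itself moves a gene to a lower class. That holds for members and for all genes alike. Of the 65 members between 1 and 2, 25 were at least 2-fold lower in replicate 1 (38.5%), against 9.40% of the 2011 HD3 genes of that level. Between 2 and 5 it was 10 of 40 members (25%) against 5.45% of 3064 genes, and at 5 or more 1 of 15 members (6.67%) against 8.31% of 2911 genes. At least 4-fold lower in replicate 1 were 13 members, which made up 11.0% of the 118 HD3 genes at 1 or more with so large a drop. With equal sums they were 7 members, or 12.7% of 55 genes, and with equal medians 16 members, or 9.58% of 167 genes.

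Single members at the extremes show the size of these differences. The member ranked 100 had 0 reads in replicate 1 and 106 and 115 reads in replicates 2 and 3, with levels of 0, 1.73 and 1.85 scaled FPKM. A floor of 3 reads in replicate 1 corresponds to 0.103 scaled FPKM for its length of 549 bp. Set at that floor, the member was 17.3-fold lower there than the mean of the other libraries. The counting interval of its 0 reads reached higher than the floor, up to 0.127 scaled FPKM. The member ranked 104 had 2 reads in replicate 1, a level of 0.0583 with a counting interval of 0.00706 to 0.211, against 133 and 118 reads and levels of 1.84 and 1.61. In the member ranked 21, at 1.09 against 5.63 and 5.41 scaled FPKM, the 5.09-fold lower value rested on 144 reads against 1576 and 1536, and the counting interval of replicate 1, 0.915 to 1.28, lay below both other values.

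Other members went the opposite way. The member ranked 89 was at 3.06 scaled FPKM in replicate 1 against 0.442 and 0.515, and its ratio of 6.40 was the highest among the members. The member ranked 84 was at 3.02 against 0.403 and 0.794, and the member ranked 46 at 4.45 against 1.12 and 1.07. These 3 were the members that were at least 4-fold higher in replicate 1 in the deposited values (2.5%). Over all 7986 HD3 genes at 1 or more the share was 1.06%. With equal sums such members numbered 8 (6.67%) against 4.72% of all genes, and with equal medians 2 (1.67%) against 0.501%. The means of the members ranked 84 and 89 passed the threshold through replicate 1, with both other libraries below 1.

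A smaller set of members held steady. The coefficient of variation over replicates was under 10% in 11 members (9.17%) and over 50% in 32 (26.7%), against 21.6% and 14% of all HD3 genes at 1 or more. Its median was 35.3% in the members and 23.05% over all genes. The steadiest was the member ranked 14, at 5.16, 5.16 and 5.06 scaled FPKM, a coefficient of variation of 1.12%. The median SD over replicates on the log2(scaled FPKM + 1) scale was 0.34 in the members and 0.25 over all genes. With equal sums the 2 medians came close, at 0.38 and 0.37. With a pseudocount of 0.1 in place of 1 they lay further apart, at 0.52 and 0.32.

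In the deposited values, replicate 1 differed from both other libraries by more than read counting in most members, as in most HD3 genes. The intervals were not made under the other scalings. A shift of a whole library moves all of its intervals, so these shares hold for the deposited scaling only. The 95% counting interval of replicate 1 lay wholly below those of both other libraries in 49 members (40.8%) and wholly above them in 44 (36.7%). Over all 7986 genes these shares were 22.9% and 47.8%. Counting intervals of replicates 2 and 3 were apart in 10 members (8.33%), against 12.4% of all genes. Intervals are wider relative to the level where reads are fewer, so all these shares also depend on the reads per gene. The median member had 162.5, 376 and 371.5 reads in replicates 1 to 3, against 495, 856.5 and 852 for the median of all 7986 genes. Fewer than 10 reads were found in 7 members in replicate 1 and in 0 in replicates 2 and 3. Over all 7986 genes this held for 151, 18 and 16 genes in replicates 1 to 3.

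The members had shorter recovered lengths than HD3 genes at 1 or more as a whole. Their recovered length, which the rule did not use, had a median of 1577 bp with quartiles of 1008.5 and 2752.5 bp, against a median of 2355 bp over all HD3 genes at 1 or more. Under 1000 bp were 30 members (25%) against 13.6% of all genes, and 5000 bp or longer were 2 members (1.67%) against 7.64%. Very short genes, under 200 bp, made up the same share of both, 5 members (4.17%) and 4.14% of all genes. These 5 members had 2 to 4 reads in replicate 1 and 11 to 31 in the other libraries, so their levels rest on few reads. A recovered length can be too short where few reads support it, and no test was made on lengths. The lengths of members were recovered from HD3 values alone, while genes listed in other tables had more values to fix theirs. Whether this adds to the difference in length was not tested.

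How far absence from the other tables reaches depends on the cutoff before scaling to cell number. The cell-number factor of fibroblasts was taken as 1. The 3 library totals that this implies lay within 0.000623 of a whole number, whereas the same quotients in the other 9 libraries lay between 0.0737 and 0.495 from one. With a factor of 1 the fibroblast cutoff was an unscaled FPKM of 0.3, and with the lowest factor that the listed reads of a fibroblast library allow it would be 0.308. The factor of HD3 was at least 0.171 and was estimated at 0.174, which is not an upper limit. The larger value was used because it gives the lower unscaled levels. A factor above 0.174 would lower them further and was not tried. All 120 members exceeded both values in HD3 before scaling, with unscaled levels from 5.81 to 134 and a median of 10.8. In red blood cells the factor was known only within bounds. The cutoff of the embryonic table stood for an unscaled FPKM of at most 27.1, and 18 members lay above that in HD3, while 102 did not. The cutoff of the adult table stood for at most 118, and 1 member, ENSGALG00000002647, lay above it in HD3 with 134. For the other 119 the listing does not show whether they were a smaller part of the transcripts in adult red blood cells than in HD3. If absence means an average below the cutoff, the listing shows only that they were lower per cell on the authors' scale.

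**Figure D4:**
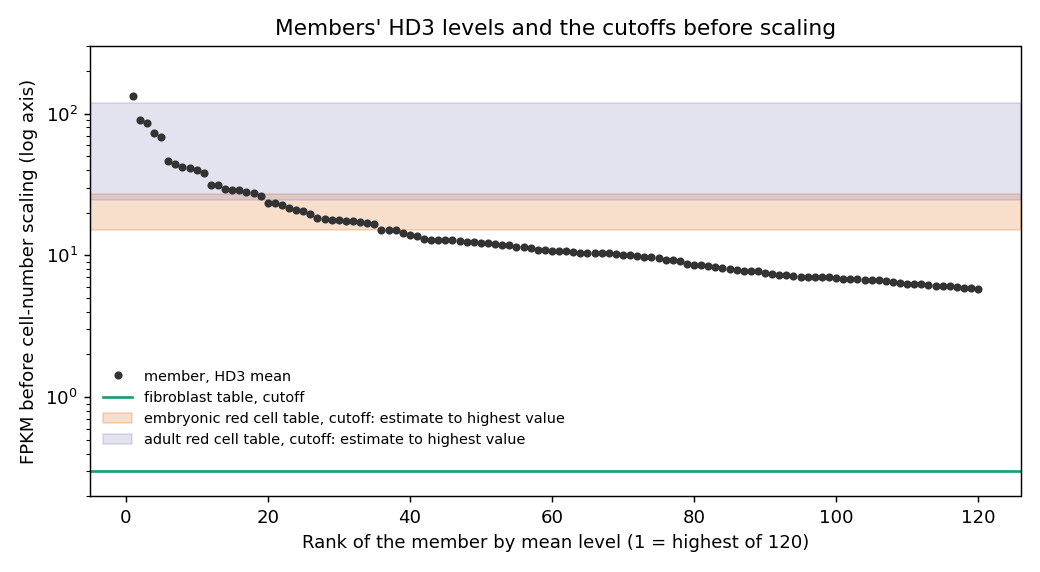
Mean FPKM of the 120 members in HD3 before scaling to cell number (points, ordered by level, log axis) and the value below which each other table leaves a gene out. The fibroblast cutoff (0.3) lies under every member, while the bands of the embryonic (15.0 to 27.1) and adult red blood cell tables (24.7 to 118) cross the members, with 18 points above the first band and 1 above the second.

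Estimates of the factor from the other side, which give each unlisted gene a value of 0.3, put the unscaled cutoff at 15.0 for the embryonic table and at 24.7 for the adult table, as drawn in the plot of the cutoffs before scaling. Then 37 members lay above the embryonic and 19 above the adult cutoff. The upper limits above took 1 factor per cell type. With a factor for each replicate they rise to 29.2 and 139, with 14 members above the first and 0 above the second. With the HD3 factor at its lower bound, the counts of members above the cutoff were 15, 18 and 38 in place of 14, 18 and 37 for the embryonic table, and did not change for the adult table. The estimated cutoffs are not lower limits, so more members than these may lie above the true ones. An HD3 factor above its estimate would work the other way.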

How the data were processed

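The authors deposited 4 tables of FPKM values scaled to cell number, with 3 replicate columns and an average. The scaling is per the names of the tables and its factor is not stated. STAR 2.7.2b, featureCounts and the build GRCg6a are named in the submitters' processing notes. Per the labels' protocols, stranded libraries were made from TRIzol RNA after ribosomal depletion. The annotation release and the counting of strand and multiply mapped reads are not given in the sources used here, so levels of overlapping genes and near-identical copies are uncertain. Columns were matched to samples by description, and 0 were left unmatched. The deposited average was at least 0.3 for every listed gene.

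Whole reads and gene lengths were recovered from the values, since each value is a whole number of reads multiplied by 1 step per library and divided by the gene's length. Lengths came out for all 10303 genes of the HD3 table. A length that shares a divisor with all reads comes out too short. In a test on simulated data for the 10303 genes of that table, reads were exact for at least 99.0%, and for 93.0% of the 386 listed in HD3 alone.

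Members and lists were chosen with earlier results of these data known. The naming rule was the 2 highest members and the 2 nearest the threshold, since no table paired IDs with names. Gene lists fixed by symbol could not be used. No test was run: all values are descriptions, computed with Python 3.11.15, pandas 2.3.3 and scipy 1.17.1. No pair of the HD3 replicates was identical. Alternatives were other thresholds, scalings, pseudocounts and left-out replicates.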

Additional observations from a re-analysis of the deposited data

How the results depend on the processing

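The number of members depended on the threshold, at 258 with a mean of at least 0.5, 55 with at least 2, 386 with no minimum and 77 with every replicate at 1 or more. Requiring absence from both red blood cell tables alone gave 6447 genes, and from fibroblasts alone 133. With single replicates left out the number ranged from 117 to 129, the median level from 1.89 to 1.92 and the share of the HD3 sum from 0.267% to 0.326%. A geometric mean with a pseudocount of 0.1 put the median level at 1.75. The share was 0.476% without the 10 highest genes. The members' median SD on the log2 scale was 0.52 with a pseudocount of 0.1 and 0.38 with equal sums. Over all HD3 genes at 1 or more it was 0.32 and 0.37. No paired analysis was possible because the members have values in 1 cell type and no test was made. The levels of 7 members rest on fewer than 10 reads in replicate 1, against 151 of all 7986 HD3 genes at 1 or more. These 7 include the 5 members under 200 bp, which had 2 to 4 reads there. They also include the members ranked 100 and 104, with 0 and 2 reads at lengths of 549 and 649 bp. What caused the low reads was not tested.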
